A study of Mus musculus with 8 samples.

Results

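The integrin and laminin subunits measured here are 34 genes, 24 integrin and 10 laminin chains, with 1 probe set each among 22206 probe sets tested. They were chosen by the form of the gene symbol, namely *Itga* followed by digits or letters, or *Itgb*, *Lama*, *Lamb* or *Lamc* followed by 1 digit. All 34 matched RefSeq by gene identifier. The arrays hold annulus fibrosus (AF), the fibrous ring of the intervertebral disc, from 4 *Abcc6*-/- mice (KO, mice 6, 7, 8 and 9) and 4 wild-type mice (WT, mice 1, 2, 3 and 5). All mice were female, 7 months old and of the C57BL6J strain, none had been treated, and the KO mice lacked *Abcc6* in the whole body. Each array carried RNA of 1 mouse, whose lumbar annuli had been put together, so that mice are the replicates. *Abcc6* encodes a transporter, found mainly in liver, that sustains circulating pyrophosphate, an inhibitor of mineralization.

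Integrins are receptors made of 1 alpha and 1 beta chain that tie the cytoskeleton to the matrix or to other cells. The alpha chain largely sets the ligand, whether collagen, laminin, proteins with an RGD motif such as fibronectin, or counter-receptors on other cells. Laminins are trimers of 1 alpha, 1 beta and 1 gamma chain that build basement membranes, thin sheets around vessels, nerves, muscle fibres and epithelia, and the pericellular matrix of some disc cells. A gamma1 chain is part of most laminin trimers, with beta1 or beta2 as its usual partner.

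The stretches upstream of *Lamb1* and *Lamb2* are shown because they encode the usual beta partners of gamma1, whose gene, *Lamc1*, was the single subunit at the cutoff given further on. They cover the 250 bases before the RefSeq start in build GRCm38.p6, chr12:31265043-31265292 for *Lamb1* and chr9:108479612-108479861 for *Lamb2*, both on the plus strand and printed 5′ to 3′. Capitals mark matches to 4 motifs searched on both strands, namely the GC box GGGCGG, the CCAAT box CCAAT, the TATA box TATAAA and the AP-1 site TGANTCA.

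Lamb1: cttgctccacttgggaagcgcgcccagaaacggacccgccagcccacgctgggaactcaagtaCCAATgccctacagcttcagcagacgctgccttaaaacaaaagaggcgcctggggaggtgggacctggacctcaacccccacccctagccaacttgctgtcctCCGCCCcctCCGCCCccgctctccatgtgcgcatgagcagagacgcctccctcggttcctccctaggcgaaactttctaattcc

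Lamb2: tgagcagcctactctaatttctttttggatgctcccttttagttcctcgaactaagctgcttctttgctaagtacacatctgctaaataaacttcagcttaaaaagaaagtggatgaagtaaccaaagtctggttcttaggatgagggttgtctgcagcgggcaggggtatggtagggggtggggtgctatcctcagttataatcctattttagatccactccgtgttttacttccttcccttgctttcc

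In *Lamb1*, 2 GC boxes on the opposite strand lay 84 to 79 and 75 to 70 bases before the start, and a CCAAT box lay 187 to 183 bases before it, with no overlap. In *Lamb2*, 0 of the 4 motifs were found in this window. A GC box was present in 32.7% of all 32851 promoters of this length, a CCAAT box in 33.9%, a TATA box in 12.4% and an AP-1 site in 6.75%. Of 24 promoters listed for 21 of the subunits, 9 held a GC box (37.5%), 4 a CCAAT box, 0 a TATA box and 1 an AP-1 site. These matches are descriptions of the letters only. *Lamc1* was not matched in this table.

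Signal is given as log2 values, and a fold change is the log2 difference KO minus WT fitted with limma over all probe sets. Correlations between arrays ran from 0.893 to 0.969. The negative control probe sets set a background on each array, with a median of 5.77 ± 0.26 log2 in KO and 5.64 ± 0.16 log2 in WT arrays (SD, n = 4 each). A control contrast (median of positive minus median of negative control probe sets) was 3.13 ± 0.83 log2 in KO and 3.82 ± 0.53 log2 in WT mice (SD, n = 4 each), and ran from 2.37 in KO mouse 7 to 4.30 in KO mouse 8. The single *Abcc6* probe set stood at 5.01 to 6.17 log2 in KO and 4.97 to 5.25 log2 in WT mice, below the negative control median in 7 of 8 mice, so that it checks no genotype. Of 15 markers of annulus and tendon fibroblasts, 9 were above the negative control median in each of the 8 mice, with *Col1a1* at 15.65 to 17.23 log2 in KO and 15.59 to 17.52 log2 in WT mice, whereas the tendon genes *Scx* and *Kera* were below it in each mouse. All 16 neutrophil markers were above it in every mouse, with a list mean of 14.17 log2 in KO mouse 6, against 15.64 to 16.45 log2 elsewhere. In WT mouse 1 the skeletal muscle list averaged 7.12 log2, against 5.67 to 6.04 log2 in the rest, and the Schwann cell list 8.97 log2, against 6.45 to 7.42 log2. The tissue is thus a mixture by its markers, and in such bulk samples fewer cells of a type and less RNA per cell cannot be told apart.

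Of the 34 subunits, 20 exceeded the negative control median in each of the 8 mice, 11 in some, and 3 (*Itga8*, *Itgae* and *Lama3*) in 0 mice. The 95th percentile of the negative controls was a harder limit, which 25 subunits reached in 0 mice and 0 subunits in all mice. *Itgb1* and *Itga2b* passed it in 7 mice. Over the 8 mice, signal ranged most for *Itga7* (4.09 log2 between the lowest and the highest mouse) and *Itgam* (3.91 log2), and least for *Itgb4* (0.79 log2) and *Itgav* (0.86 log2).

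**Figure D1:**
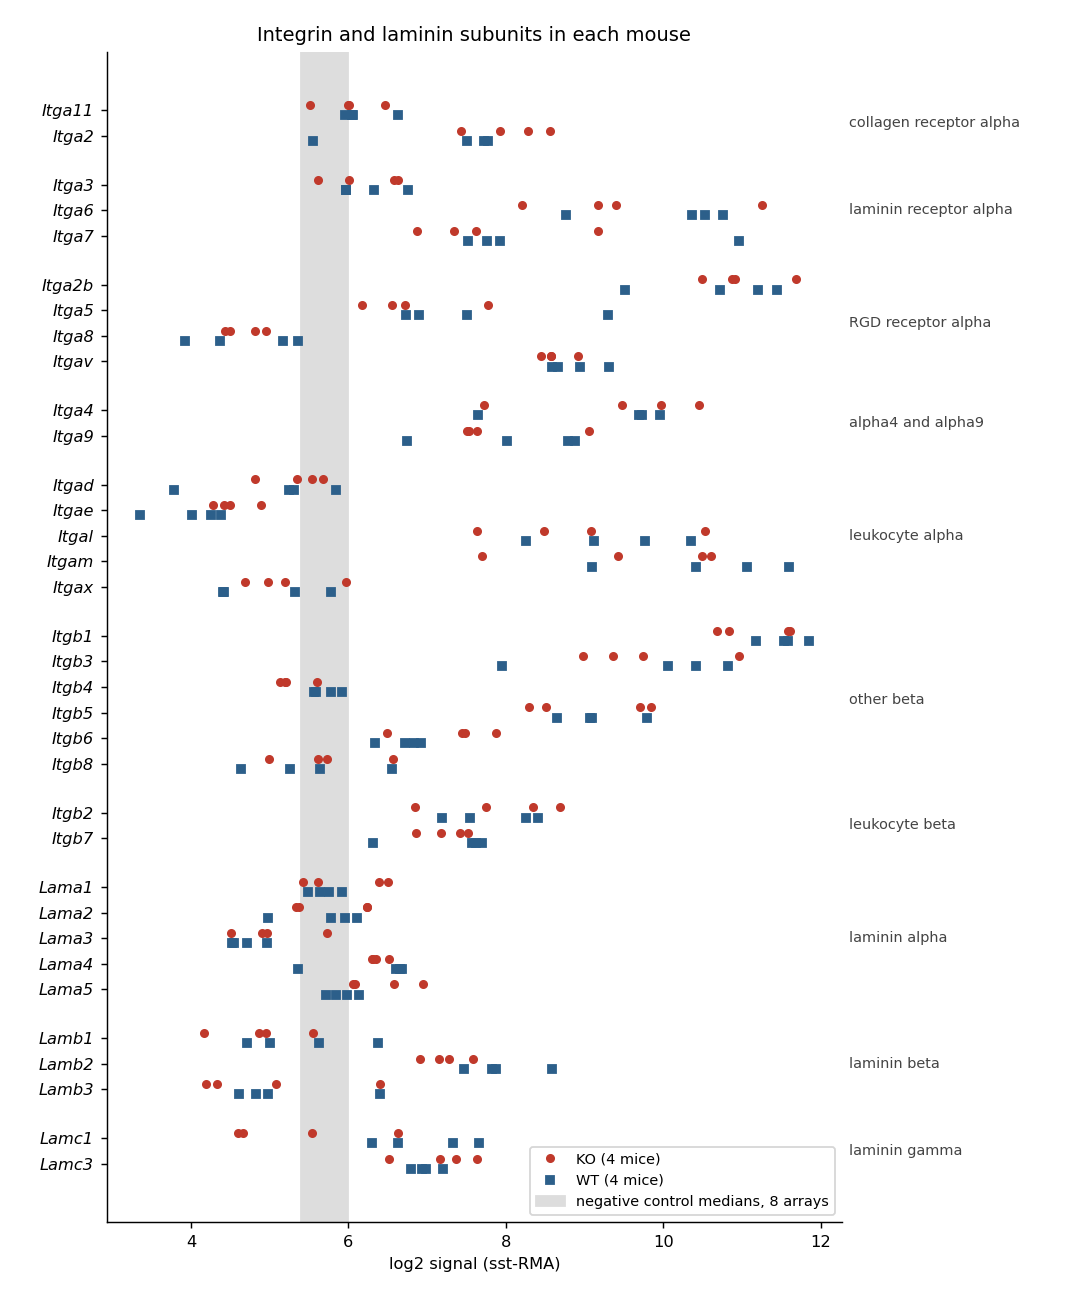
Signal (log2, x axis) of the 34 subunits, grouped by role, with 1 point per mouse (KO circles, WT squares) and the range of the 8 negative control medians in grey. Levels of different probe sets are not comparable with each other. The genotypes overlap in every row, and *Itga8* and *Itgae* lie at or left of the grey band.

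Between genotypes, 1 of 34 subunits (2.94%) reached the cutoff of the study (unadjusted p ≤ 0.01 and fold change ≥ 1.75), against 0.725% of all probe sets tested in either direction and 0.297% lower in KO mice. It was *Lamc1*, and no subunit was higher in KO mice at this cutoff. At an unadjusted p under 0.05 there were 2 subunits, *Lamc1* and *Lamb2*, both lower in KO mice, which is 5.88% of the subunits against 5.28% of all probe sets. The genotypes were free of overlap for 0 subunits, against 2.53% of all probe sets. After Benjamini-Hochberg adjustment over all probe sets in limma, 0 subunits and 0% of all probe sets passed an adjusted p of 0.05, and the smallest adjusted p of a subunit was 0.848. By sign, 15 subunits were higher and 19 lower in KO mice, with a median log2 fold change of −0.050, against 0.027 for all probe sets, of which 52.4% were higher. Under the alternative fits of all 34, the number higher in KO mice ran from 10 to 20. The integrin chains divided into 9 higher and 15 lower (median −0.055) and the laminin chains into 6 higher and 4 lower (median 0.065).

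**Figure D2:**
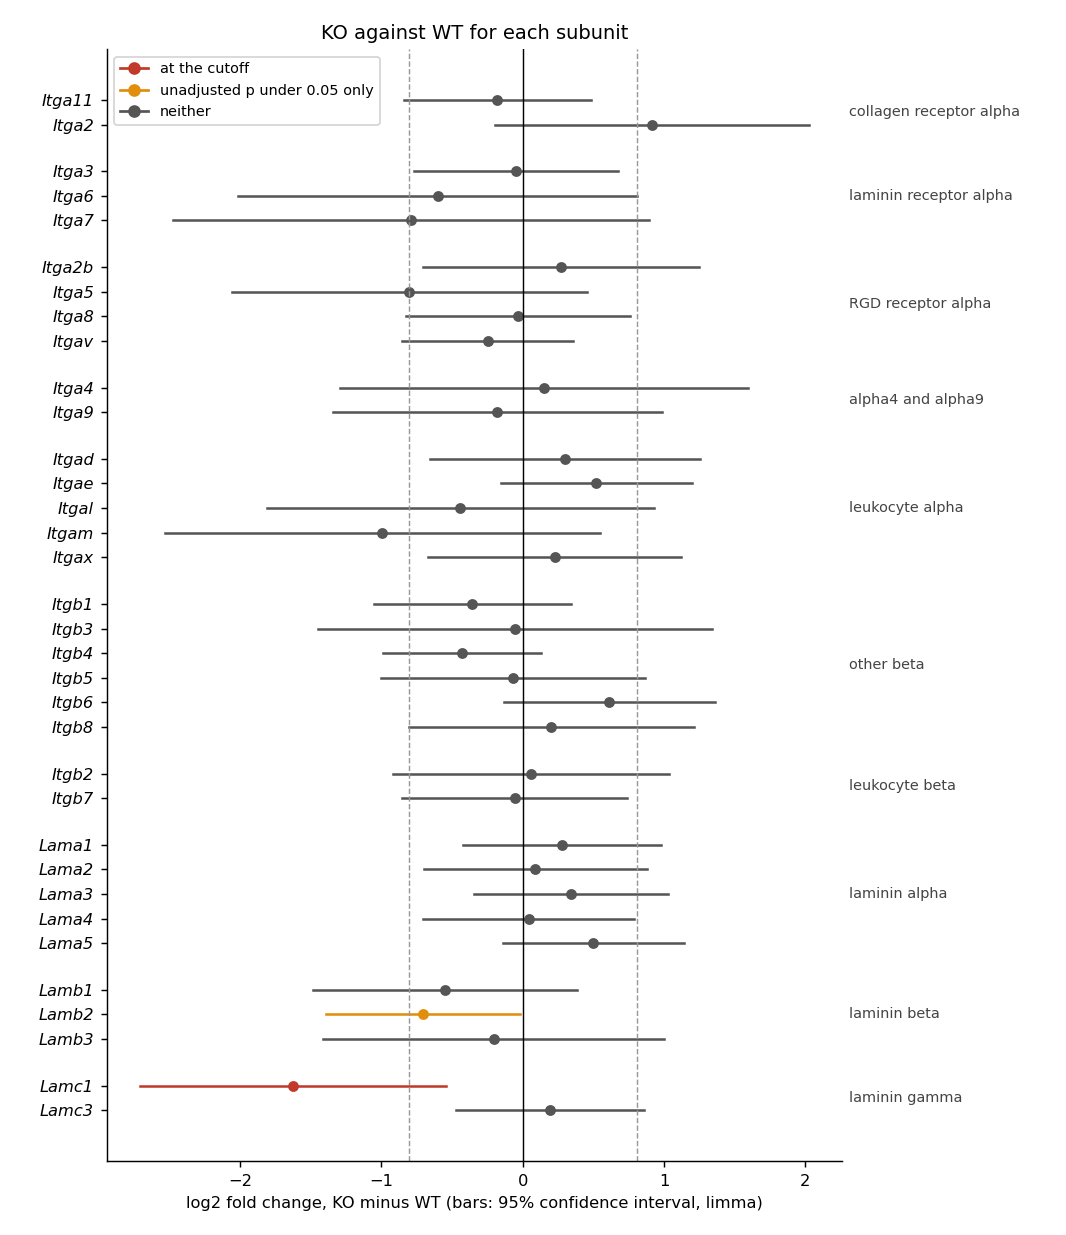
Log2 fold change, KO minus WT (x axis), of each subunit with its 95% confidence interval in limma. Dashed lines mark a fold change of 1.75. *Lamc1*, the single subunit at the cutoff, is at −1.62, *Lamb2* at −0.71, and the intervals of the other 32 include 0.

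*Lamc1*, which encodes the laminin gamma1 chain, had the lowest fold change of all subunits. Its signal was 4.60, 4.66, 6.62 and 5.54 log2 in KO mice 6, 7, 8 and 9, and 6.30, 6.64, 7.66 and 7.33 log2 in WT mice 1, 2, 3 and 5. KO mice 6, 7 and 9 were below all WT mice, while KO mouse 8 lay above WT mouse 1. The mean was 5.36 ± 0.95 log2 in KO and 6.98 ± 0.62 log2 in WT mice (SD, n = 4 each), a log2 fold change of −1.62 (standard error, SE, 0.49, 95% confidence interval −2.71 to −0.54). The unadjusted p was 0.00726 and the adjusted p 0.848 in limma, and the 2-sided exact permutation test over the mice gave p = 0.0571, where 4 against 4 mice can reach 0.0286 at the lowest. *Lamc1* was above the negative control median in 1 KO mouse (mouse 8) and in all 4 WT mice, so that its level in the other 3 KO mice was not told from background and the size of the fold change is not exact. KO mouse 8 also had the highest control contrast. Without it the log2 fold change was −2.05, and without WT mouse 1 it was −1.85, both still at the cutoff. In the fit without KO mouse 8, 992 of all probe sets reached the cutoff, against 161 in the main fit. The 3 KO mice left in that fit were those not told from background. Leaving out WT mouse 2, 3 or 5 or KO mouse 6, 7 or 9 took *Lamc1* out of the cutoff, through its p and not its fold, with log2 fold changes of −1.74 to −1.37. With the control contrast as a covariate the log2 fold change was −1.10 and with the mean of the neutrophil markers −1.16, neither at the cutoff, and with that of the endothelial markers −1.43, at the cutoff.

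*Lamc3*, which encodes the gamma3 chain, stood at 7.36, 7.64, 6.51 and 7.16 log2 in KO mice 6, 7, 8 and 9, and at 6.80, 6.93, 7.20 and 6.98 log2 in WT mice 1, 2, 3 and 5. KO mouse 8 was the lowest of all and KO mouse 7 the highest, so that the WT mice fell within the KO range. Its log2 fold change was 0.19 (SE 0.30, adjusted p = 0.89 in limma).

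All 3 beta chains had a fold change below 0, with a median of −0.55, and 1 of them passed an unadjusted p of 0.05. *Lamb1* and *Lamb2* kept this sign in every alternative fit that held them, while *Lamb3* turned to 0.20 without WT mouse 3 and was also above 0 without KO mouse 7 or 8. *Lamb2* encodes the beta2 chain of muscle, nerve and vessel laminins. It stood at 7.58, 6.91, 7.28 and 7.15 log2 in KO mice 6, 7, 8 and 9, and at 7.87, 7.47, 8.59 and 7.82 log2 in WT mice 1, 2, 3 and 5. KO mouse 6 was above WT mouse 2, and the other KO mice were below all WT mice. The log2 fold change of *Lamb2* was −0.71 (SE 0.31, 95% confidence interval −1.39 to −0.02), with an unadjusted p of 0.0443 and an adjusted p of 0.848 in limma, and p = 0.0571 in the 2-sided exact permutation test. *Lamb2* stayed under an unadjusted p of 0.05 without KO mouse 6 (−0.82) or WT mouse 2 (−0.86), and missed it without KO mouse 7 (−0.60), 8 (−0.72) or 9 (−0.68) and without WT mouse 1 (−0.73), 3 (−0.49) or 5 (−0.75). It also missed it with the filter at the negative control median, the intensity trend and each of the 3 covariates (−0.74 to −0.51 over these 5 fits). *Lamb1*, which encodes the beta1 chain, stood at 4.86, 4.16, 5.55 and 4.95 log2 in KO mice and at 5.62, 5.0, 6.38 and 4.71 log2 in WT mice. It was above the negative control median in 1 KO mouse and 2 WT mice, and WT mouse 5 was lower than 3 of the KO mice. Its log2 fold change was −0.55 (SE 0.42, adjusted p = 0.848 in limma). *Lamb3*, the beta chain of an epithelial laminin, ranged from 4.19 to 6.40 log2 in KO and from 4.60 to 6.40 log2 in WT mice (log2 fold change −0.20, SE 0.54) and was above the negative control median in 1 mouse of each genotype.

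All 5 alpha chains had a fold change above 0, with a median of 0.28, but 0 of them passed an unadjusted p of 0.05. *Lama3* and *Lama5* kept this sign in every alternative fit that held them, and *Lama1*, *Lama2* and *Lama4* did not. *Lama5*, which encodes a broadly used alpha chain of adult basement membranes, stood at 6.95, 6.57, 6.06 and 6.09 log2 in KO mice 6, 7, 8 and 9, and at 5.98, 6.14, 5.84 and 5.72 log2 in WT mice 1, 2, 3 and 5. KO mice 6 and 7 were above all WT mice, and KO mice 8 and 9 were between WT mice 1 and 2. Its log2 fold change was 0.50 (SE 0.29, adjusted p = 0.848 in limma, p = 0.0857 in the 2-sided exact permutation test). *Lama4*, which encodes the alpha chain of endothelial and perivascular laminins, stood at 6.35, 6.51, 6.30 and 6.31 log2 in KO mice, and at 5.36, 6.66, 6.69 and 6.61 log2 in WT mice. The KO mice lay close to each other, below 3 WT mice and above WT mouse 1. The log2 fold change of *Lama4* was 0.04 (SE 0.34), or −0.28 without WT mouse 1. *Lama2*, which encodes the alpha chain of muscle and nerve laminins, stood at 6.23, 5.34, 6.23 and 5.37 log2 in KO mice and 5.78, 4.98, 5.95 and 6.11 log2 in WT mice. KO mice 6 and 8 were the highest of all and the fold change was 0.09 (log2, SE 0.36). The remaining chains, *Lama1* and *Lama3*, had log2 fold changes of 0.28 (SE 0.32) and 0.34 (SE 0.31), with *Lama3* never above the negative controls' median.

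**Figure D3:**
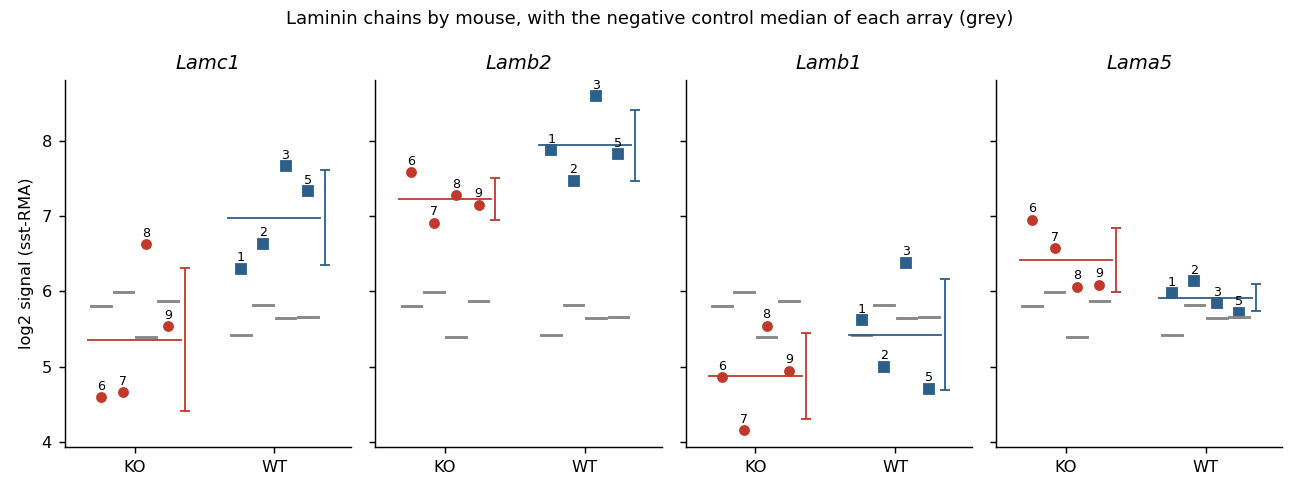
Signal (log2, y axis) of *Lamc1*, *Lamb2*, *Lamb1* and *Lama5* in KO (circles) and WT (squares) mice, numbered by mouse, with the mean and SD of each genotype (n = 4) and the negative control median of each array in grey. In *Lamc1*, KO mouse 8 at 6.62 log2 lies above WT mouse 1 at 6.30 log2, and the other KO mice lie below their grey bars.

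Chains of 1 trimer were compared over the 8 mice, among 36 pairs of subunits known to assemble (14 laminin and 22 integrin pairs). *Lama5* and *Lamc1* varied in opposite directions, with a Pearson r of −0.89 (exact permutation p = 0.00176, adjusted p = 0.0634 over the 36 pairs) and a Spearman rho of −0.81 (exact permutation p = 0.0218, adjusted p = 0.331). The r was −0.72 without KO mice 6 and 7, and −0.80 over deviations from the genotype means. *Lamb2* and *Lamc1* had an r of 0.70 (exact permutation p = 0.0505) and a rho of 0.57 (exact permutation p = 0.151), and *Lamb1* and *Lamc1* an r of 0.66 (exact permutation p = 0.0737) and a rho of 0.50 (exact permutation p = 0.216). These 2 values were 0.28 and 0.13 without WT mouse 3 and KO mouse 7, the mice farthest from the median of each beta chain. Leaving out such mice also narrows the range. Without any single mouse the r were 0.54 to 0.84 and 0.47 to 0.87. Over deviations from the genotype means they were 0.33 and 0.56. With the control contrast of the arrays removed they were 0.40 and 0.08, while the r of *Lama5* and *Lamc1* was −0.82. *Lamc1* was above the negative control median in 1 KO and 4 WT mice, and *Lamb1* in 1 KO and 2 WT mice. Part of these r therefore rests on values not told from background. Of the 36 pairs, 22 had an r above 0 (median 0.12), 5 had a raw p under 0.05 and 0 passed after adjustment.

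Among the laminin-binding integrin alpha chains, 3 of 3 had a fold change below 0, with 0 past an unadjusted p of 0.05. Each of the 3 turned sign in at least 1 alternative fit. *Itga6*, which encodes the alpha6 chain that pairs with beta1 or beta4, stood at 9.17, 8.21, 11.25 and 9.40 log2 in KO mice 6, 7, 8 and 9, and at 10.76, 8.77, 10.54 and 10.37 log2 in WT mice 1, 2, 3 and 5. KO mouse 8 was the highest and KO mouse 7 the lowest of all, and the genotypes overlapped. The log2 fold change was −0.60 (SE 0.64, adjusted p = 0.859 in limma). *Itga6* followed the control contrast of the array more closely than any other subunit, with an r of 0.94 (exact permutation p = 0.00196, adjusted p = 0.0666 over 34 subunits) and a rho of 0.90 (exact permutation p = 0.00456, adjusted p = 0.155), or an r of 0.88 without KO mice 7 and 8. With that contrast as a covariate its log2 fold change was 0.45, of the opposite sign. *Itga7*, the laminin receptor chain of muscle fibres and Schwann cells, stood at 9.17, 7.35, 6.87 and 7.62 log2 in KO mice and at 10.96, 7.76, 7.52 and 7.93 log2 in WT mice. WT mouse 1 and KO mouse 6 were above the rest, and the log2 fold change of −0.79 (SE 0.76) was 0.017 without WT mouse 1. *Itga3* (5.61 to 6.63 log2 in KO and 5.97 to 6.76 log2 in WT mice) had a log2 fold change of −0.05 (SE 0.33).

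The 2 collagen-binding alpha chains on this list differed in sign. *Itga2*, which encodes the alpha2 chain of platelets and epithelia, had the highest fold change of all subunits. It stood at 8.28, 7.42, 8.56 and 7.93 log2 in KO mice 6, 7, 8 and 9, and at 5.54, 7.72, 7.51 and 7.77 log2 in WT mice 1, 2, 3 and 5. WT mouse 1 lay far below the others and KO mouse 7 below all WT mice but that one. The log2 fold change was 0.91 (SE 0.50, adjusted p = 0.848 in limma, p = 0.143 in the 2-sided exact permutation test), and 0.38 without WT mouse 1. *Itga11*, the collagen I receptor chain of fibroblasts, stood at 5.99, 5.51, 6.0 and 6.46 log2 in KO mice and at 5.95, 6.04, 6.63 and 6.06 log2 in WT mice, close to the negative controls. Its log2 fold change was −0.18 (SE 0.30).

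Of the RGD-binding alpha chains, *Itga5*, the fibronectin receptor chain, stood at 6.55, 6.72, 7.77 and 6.17 log2 in KO mice and at 7.50, 6.73, 9.30 and 6.89 log2 in WT mice. KO mice 6, 7 and 9 were below all WT mice, and KO mouse 8 was above all WT mice but mouse 3. The log2 fold change was −0.80 (SE 0.57, adjusted p = 0.848 in limma), −0.24 without WT mouse 3 and −1.13 without KO mouse 8. *Itgav*, the alpha chain shared by several receptors of RGD proteins, stood at 8.45, 8.92, 8.58 and 8.58 log2 in KO mice and at 8.58, 9.31, 8.95 and 8.66 log2 in WT mice. Its log2 fold change was −0.25 (SE 0.27), with KO mouse 7 above WT mice 1 and 5. *Itga2b*, the platelet and megakaryocyte chain, stood at 10.91, 10.88, 11.68 and 10.50 log2 in KO mice and at 9.51, 11.21, 10.72 and 11.44 log2 in WT mice (log2 fold change 0.27, SE 0.44, or −0.13 without WT mouse 1), with WT mouse 1 the lowest. *Itga8* was at 4.43 to 4.96 log2 in KO and 3.93 to 5.36 log2 in WT mice, always below the negative control median. *Itga4* and *Itga9*, whose products bind fibronectin, VCAM-1 or tenascin, had log2 fold changes of 0.15 (SE 0.65, or −0.39 without WT mouse 1) and −0.18 (SE 0.52).

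Of the 6 beta chains not confined to leukocytes, 4 had a fold change below 0 and 0 passed an unadjusted p of 0.05, with *Itgb1* and *Itgb4* below 0 in every alternative fit that held them and *Itgb3* and *Itgb5* not. *Itgb1*, the partner of most matrix-binding alpha chains, stood at 11.61, 10.84, 11.59 and 10.69 log2 in KO mice 6, 7, 8 and 9, and at 11.58, 11.85, 11.53 and 11.18 log2 in WT mice 1, 2, 3 and 5. KO mice 7 and 9 were below all WT mice and KO mice 6 and 8 were within the WT range, for a log2 fold change of −0.36 (SE 0.31, adjusted p = 0.851 in limma). *Itgb6*, the epithelial partner of alphaV, stood at 7.88, 7.44, 6.49 and 7.48 log2 in KO mice and at 6.84, 6.72, 6.34 and 6.93 log2 in WT mice. KO mice 6, 7 and 9 were above all WT mice and KO mouse 8 was not. Its log2 fold change was 0.61 (SE 0.34, adjusted p = 0.848 in limma, p = 0.114 in the 2-sided exact permutation test). Without KO mouse 8 it was 0.89, which reached the cutoff and made 2 subunits there, while 992 of all probe sets reached it in that fit. *Itgb4*, the hemidesmosome chain that pairs with alpha6, stood at 5.13 to 5.60 log2 in KO and 5.56 to 5.92 log2 in WT mice, with KO mouse 8 above WT mice 3 and 5 (log2 fold change −0.43, SE 0.25, p = 0.0857 in the 2-sided exact permutation test). *Itgb4* was above the negative control median in only 1 mouse of each genotype, so that its level in the others was not told from background. *Itgb3*, *Itgb5* and *Itgb8* had log2 fold changes of −0.05 (SE 0.63), −0.07 (SE 0.42) and 0.20 (SE 0.45), with *Itgb8* above the negative control median in 1 mouse of each genotype.

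The 7 leukocyte integrin chains averaged 6.46, 7.05, 7.51 and 6.81 log2 in KO mice 6, 7, 8 and 9, and 6.19, 6.97, 7.56 and 7.33 log2 in WT mice 1, 2, 3 and 5, a difference of −0.055 log2. KO mouse 6 and WT mouse 1 were the lowest of their genotypes. *Itgam*, the alphaM chain of neutrophils and macrophages, stood at 7.69, 10.49, 10.60 and 9.42 log2 in KO mice and at 9.10, 10.42, 11.60 and 11.07 log2 in WT mice. KO mouse 6 was the lowest of all, and the log2 fold change was −0.99 (SE 0.69, adjusted p = 0.848 in limma), or −0.37 without that mouse. Its common partner *Itgb2* stood at 6.85, 8.35, 8.68 and 7.75 log2 in KO mice and at 7.19, 7.54, 8.25 and 8.41 log2 in WT mice, and KO mouse 6 was again the lowest (log2 fold change 0.06, SE 0.44). *Itgal*, the lymphocyte partner of *Itgb2*, and *Itgb7*, which pairs with alpha4 or alphaE on gut-homing lymphocytes, had log2 fold changes of −0.44 (SE 0.62) and −0.06 (SE 0.36). The other 3 leukocyte alpha chains, *Itgad*, *Itgae* and *Itgax*, had log2 fold changes of 0.30, 0.52 and 0.23 and were above the negative control median in 2, 0 and 2 mice.

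The 4 highest r among integrin pairs were those of leukocyte and platelet receptors, and 0 of them passed adjustment over the 36 pairs. The r was 0.85 for *Itgam* and *Itgb2* (exact permutation p = 0.00697, adjusted p = 0.094 over the 36 pairs, rho 0.81 with exact permutation p = 0.0218), and 0.82 for *Itgal* and *Itgb2* (exact permutation p = 0.0173, adjusted p = 0.156, rho 0.79 with exact permutation p = 0.0279). For *Itga2b* and *Itgb3*, the platelet fibrinogen receptor, it was 0.85 (exact permutation p = 0.00784, adjusted p = 0.094, rho 0.76 with exact permutation p = 0.0368), and for *Itga4* and *Itgb7* 0.84 (exact permutation p = 0.0257, adjusted p = 0.185, rho 0.40 with exact permutation p = 0.327). Leaving out the 2 mice most distant from the alpha chain's median, these r were 0.50, 0.57, 0.45 and −0.33, in the order given. The 10 pairs of an alpha chain with *Itgb1* had r between −0.29 and 0.41.

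The leukocyte and platelet chains were then set beside markers of the cells that carry them. The mean of the 7 leukocyte chains had an r of 0.75 (rho 0.86) with the neutrophil list, 0.61 (rho 0.52) with the macrophage list, 0.56 (rho 0.40) with the T and NK cell list and 0.68 (rho 0.57) with the B cell list, given as a description over 8 mice. Without KO mouse 6 and WT mouse 5 the r with the neutrophil list was 0.89. Single subunits were paired with a list in 6 relations chosen after their values were seen, so that they are given without a test. *Itgam* had an r of 0.93 with the neutrophil list (rho 0.90, r 0.82 without KO mouse 6 and WT mouse 5). With the platelet list *Itga2b* had an r of 0.77 (rho 0.81) and *Itgb3* also 0.77 (rho 0.83), and *Itga4* had 0.77 with the B cell list (rho 0.86). *Itga7* had an r of 0.91 with the Schwann cell list but a rho of 0.62, and r was 0.61 without WT mouse 1 and KO mouse 7. Its r with the muscle list was 0.85 (rho 0.33), and 0.42 without WT mice 1 and 3, the mice farthest from the median of that list. The platelet list ran from 8.33 to 10.05 log2 in KO and from 8.41 to 9.5 log2 in WT mice, and the neutrophil list averaged 15.53 ± 0.96 log2 in KO and 16.08 ± 0.41 log2 in WT mice (SD, n = 4 each). With the neutrophil list as a covariate, log2 fold changes were −0.15 for *Itgam* and 0.90 for *Itga4*, against −0.99 and 0.15 without it. They were −1.525 for *Itga7*, 0.49 for *Itga2b* and 0.23 for *Itgb3*, against −0.79, 0.27 and −0.05. The part of these cells in the fold changes was not tested beyond the fits with a marker list as a covariate.

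**Figure D4:**
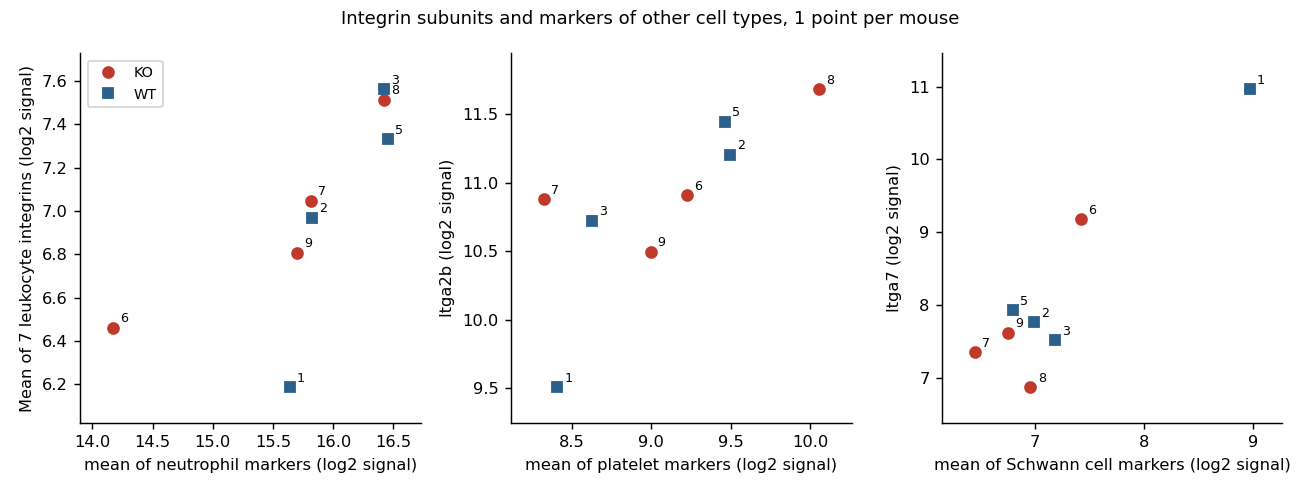
Integrin signal against the mean of a marker list (both axes log2), 1 numbered point per mouse (KO circles, WT squares), for the 7 leukocyte chains and neutrophil markers, *Itga2b* and platelet markers, and *Itga7* and Schwann cell markers. KO mouse 6 is at 14.17 log2 for the neutrophil markers, and WT mouse 1 stands apart at 8.97 log2 for the Schwann cell markers and 10.96 log2 for *Itga7*.

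The control contrast moved with other subunits besides *Itga6*. Of 34 relations, computed after the values were seen, 8 (23.5%) had a raw exact permutation p under 0.05 and 0 an adjusted one. Of all 22206 probe sets, 26.7% had such a raw p, so that the subunits were near the share of the whole array. Subunits with lower signal on arrays of low contrast included *Lamb1* (r 0.84, rho 0.74, adjusted permutation p = 0.124 and 0.260), *Itga5* (r 0.75, rho 0.86, adjusted permutation p = 0.174 and 0.182) and *Lamc1* (r 0.75, rho 0.57, adjusted permutation p = 0.174 and 0.467). *Itgb6* (r −0.79, rho −0.74, adjusted permutation p = 0.174 and 0.260) and *Lamc3* (r −0.77, rho −0.79, adjusted permutation p = 0.174 and 0.260) went the other way. Without KO mice 7 and 8, which had the lowest and the highest contrast, the r were 0.77, 0.82, 0.66, −0.74 and −0.47. With the contrast as a covariate 25 of 34 subunits kept their sign, 0 reached the cutoff, and 71 of all probe sets reached it, against 161 without the covariate.

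**Figure D5:**
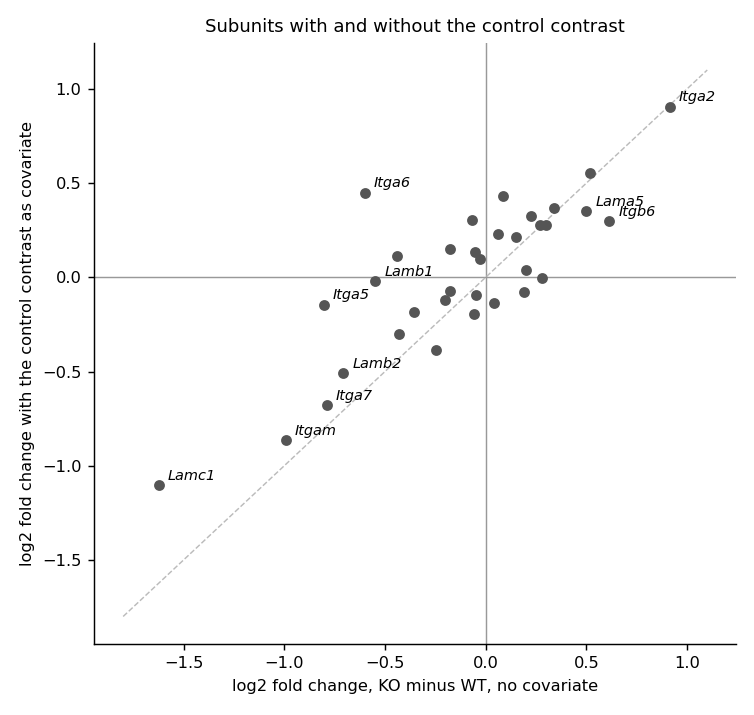
Log2 fold change, KO minus WT, of the 34 subunits with the control contrast as a covariate (y axis) against that without it (x axis), with the line of equal values dashed. *Lamc1* moved to −1.10 with the covariate, against −1.62 without it, and *Itga6* to 0.45, against −0.60.

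Proteins that work with these chains were read from 3 lists. Of all probe sets, 0.725% reached the cutoff of the study and 5.28% had an unadjusted limma p under 0.05. The counts below are set beside these shares and are not read as a result about the lists. Of 32 cytoplasmic partners of integrins (talins, kindlins, kinases and actin linkers), 6 were higher and 26 lower in KO mice. Their median log2 fold change was −0.35, against 0.027 for all probe sets. The median of all probe sets kept was −0.076 under the filter at the negative control median. It was −0.255 under the filter at the 95th percentile. These filters ask for 4 mice, which can all be of the same genotype. Their limits were lower on WT arrays (means 5.64 and 9.89 log2) than on KO arrays (5.77 and 10.34 log2). They can thus favour probe sets high in WT mice, so that these medians do not show how the fold change relates to signal. A comparison of this list with probe sets of like signal was not tested. None of the 32 reached the cutoff of the study, and 2 passed an unadjusted p of 0.05, *Rap1a*, a small GTPase that activates integrins (log2 fold change −0.98, SE 0.35), and *Actn4*, an actin crosslinker (−0.80, SE 0.32). *Rap1a* stood at 10.03, 10.52, 11.46 and 10.21 log2 in KO mice 6, 7, 8 and 9, and at 11.12, 11.77, 11.54 and 11.72 log2 in WT mice 1, 2, 3 and 5, with KO mouse 8 alone inside the WT range. The mean of the 32 was 8.87, 8.57, 9.53 and 8.73 log2 in KO mice and 8.85, 9.16, 9.65 and 9.36 log2 in WT mice, highest on arrays of KO mouse 8 and WT mouse 3. For this mean the 2-sided exact permutation test between genotypes gave p = 0.286. Of 23 basement membrane partners of laminin, 9 were higher and 14 lower (median −0.16), 0 reached the cutoff and 2 passed an unadjusted p of 0.05. These were *Dag1*, the laminin receptor dystroglycan (log2 fold change −1.01, SE 0.44, 9.78, 8.59, 9.54 and 9.11 log2 in KO mice and 10.93, 9.29, 10.99 and 9.86 log2 in WT mice), and *Col4a4*, a collagen IV chain (0.81, SE 0.32). *Col4a4* stood at 7.27, 7.21, 6.41 and 7.43 log2 in KO mice and at 6.15, 6.48, 5.86 and 6.61 log2 in WT mice. In both genes the genotypes overlapped, through KO mice 6 and 8 in *Dag1* and through KO mouse 8 in *Col4a4*. Of 31 matrix and cell ligands of integrins, 15 were higher and 16 lower (median −0.0019), 0 reached the cutoff and 1 passed an unadjusted p of 0.05. It was *Ibsp*, the RGD protein bone sialoprotein, at 15.77, 15.90, 16.20 and 16.62 log2 in KO mice and 14.61, 16.09, 15.46 and 13.86 log2 in WT mice (log2 fold change 1.12, SE 0.46). WT mouse 2 was above KO mice 6 and 7. The osteoblast list, which also holds *Ibsp*, had 8 of 9 genes higher in KO mice (median 0.33), against 52.4% of all probe sets. Its mean ran from 10.83 to 11.08 log2 in KO and from 10.15 to 11.26 log2 in WT mice. WT mouse 2 was the highest of all, so that the genotypes overlapped. Other cell lists leaned too. Higher in KO mice were 9 of 11 T and NK cell markers (median 0.38) and 2 of 16 neutrophil markers (median −0.42). The endothelial list divided into 7 higher and 7 lower. The adjusted p of each of the 5 genes named from the 3 partner lists was 0.848 in limma.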

How the data were processed

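The authors hybridised biotin-labelled cDNA of the AF of each mouse to 1 Mouse Clariom S array and summarised them in the Transcriptome Analysis Console. Values are log2 signal as deposited, made by sst-RMA (robust multi-array averaging with a signal space transformation) per the labels. The genome build is not given in the sources used here. The study also filtered on detection above background, whose detection p-values were not analysed here. The precision is limited by how few arrays there are.

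Of 28846 probe sets, 6640 controls were left out (5222 negative and 1324 positive controls served as background). Of the 22206 tested, 19572 carry 1 gene symbol, 0 several and 2634 none. All sample columns were used (0 left out). KO minus WT was fitted in R 4.3.3 by lmFit and eBayes of limma 3.58.1 (no covariate), tested on simulated data first, with Benjamini-Hochberg adjustment over all probe sets tested. The cutoff was that of the study, a 1.75-fold change together with an unadjusted limma p of at most 0.01. Permutation tests are 2-sided and exact, over the 35 divisions of the mice into 2 groups for a difference and over the 40320 orders of the mice for a correlation (Python 3.11.15, scipy 1.17.1). Genes of a marker list were averaged in each mouse.

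The members and all lists were chosen with earlier results of these data known. Values by mouse are printed for subunits at the cutoff or at p under 0.05 and for a fixed set (*Itgb1*, *Itgb2*, *Itga5*, *Itga11*, *Itgav*, *Itga6*, *Itgam*, *Lama2*, *Lama4*, *Lamb1* and *Lamc1*). Of each partner list, up to 4 genes with the smallest p under 0.05 are named. Values by mouse of *Itga2*, *Itga7*, *Itga2b*, *Itgb6*, *Lama5* and *Lamc3*, and the pairing of subunits with the control contrast and with single marker lists, were chosen after the values were seen. Some subunits of both families were not analysed here. Alternatives were quantile normalization, median centring, filters at the negative control median and 95th percentile (in at least 4 mice), array quality weights, other cutoffs, robust priors with a trend on intensity, the unpaired t-test of equal variance, 3 covariates and leaving out each mouse.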

Additional observations from a re-analysis of the deposited data

Results flagged for a closer look

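In 8 of 68 groups of 4 mice (34 subunits in each genotype), 1 mouse stood apart from the other 3 by Dixon's criterion, where chance flags about 1 in 20 groups, or 3.4 of 68. Of the 8, 2 were in KO mouse 8, 5 in WT mouse 1 and 1 in WT mouse 3. KO mouse 8 was high for *Itga9* (9.05 log2, the next KO mouse at 7.64) and for *Itgb4* (5.60 log2, the next at 5.21). WT mouse 1 was low for *Itga2* (5.54 log2, the next WT mouse at 7.51), *Itga4* (7.64 log2, the next at 9.69), *Itgb7* (6.31 log2, the next at 7.58) and *Lama4* (5.36 log2, the next at 6.61), and high for *Itga7* (10.96 log2, the next at 7.93). WT mouse 3 was high for *Itga11* (6.63 log2, the next at 6.06). The skeletal muscle and Schwann cell lists were also highest in WT mouse 1, and the control contrast was highest in KO mouse 8 and next highest in WT mouse 1. The part of these measures in the values above was not tested.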

How the results depend on the processing

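The count of 1 subunit at the cutoff was kept, with *Lamc1* as the gene, under quantile normalization, median centring, the intensity trend, array quality weights, the endothelial covariate and the p cutoff alone with no fold limit. The filter at the negative control median also gave 1, but *Lamc1* passes it only through the WT mice, so that this count says nothing about its stability. It was 0 with the filter at the 95th percentile of the negative controls, which leaves 4 subunits and not *Lamc1*, 0 with the unpaired t-test, 0 with the control contrast and 0 with the neutrophil list as a covariate, and 2 at the looser cutoff (p limit of 0.05, fold change of 1.5). Leaving out single mice gave 0 to 2. The log2 fold change of *Lamc1* was −1.62 in the t-test, where it missed the cutoff, −1.10 with the control contrast, −1.16 with the neutrophil list, and −2.05 to −1.37 without single mice. Median fold changes of the subunits ran from −0.26 to 0.15 without single mice. Of the 34 subunits, the sign turned for 4 with quantile normalization, 1 with median centring, 7 with array weights, 9 with the control contrast, 6 with the neutrophil list, 5 with the endothelial list and 4 to 7 without single mice. Among the subunits followed one by one, these were *Itga6* (0.45 with the control contrast), *Itgb2* (−0.27 with array weights), *Lama2* (−0.027 with quantile normalization, −0.12 with weights), *Lama4* (−0.0093 with quantile normalization, −0.0071 with median centring, −0.11 with weights, −0.14 with the control contrast), *Itga4* (−0.24 with weights), *Itga2b* (−0.16 with weights) and *Itgb3* (0.12 with quantile normalization, 0.14 with the control contrast, 0.23 with the neutrophil and 0.16 with the endothelial list). Without single mice, signs among these subunits turned for *Itgb2* (−0.20 to 0.41), *Lama2* (−0.15 to 0.24), *Lama4* (−0.28 to 0.16), *Itga4* (−0.39 to 0.71), *Itga2b* (−0.13 to 0.51), *Itgb3* (−0.67 to 0.28) and *Itga7* (−1.26 to 0.017). The cause was not tested. *Itgb6* was 0.43 to 0.89 without single mice.

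Over all probe sets 161 reached the cutoff, against 100 with the filter at the negative control median (of 14255 tested), 21 with that at the 95th percentile (of 2811 tested), 704 with array weights, 73 in the t-test, 71 with the control contrast, 84 with the neutrophil list and 1164 at the looser cutoff. Without single mice the count was 49 (WT mouse 3) to 992 (KO mouse 8), with 85, 81 and 63 without KO mice 6, 7 and 9 and 278 and 104 without WT mice 2 and 5. Of the subunit pairs, 0 passed after adjustment in the main values, 1 did over deviations from the genotype means (*Itgam* with *Itgb2*, r 0.96), and 0 to 1 did without single mice. The test over deviations reordered values already centred within each genotype, so that its p is approximate and may be too small. The r of the leukocyte chains without single mice ran from 0.71 to 0.92 with the neutrophil list, 0.47 to 0.70 with the macrophage list, 0.36 to 0.92 with the T and NK cell list and 0.54 to 0.82 with the B cell list. Signal near the negative controls limits what can be read from the 14 subunits that were not above their median in all mice. No paired analysis was possible because the mouse numbers are not shared between genotypes.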
